A study of Homo sapiens with 4 samples.

Results

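The cytosolic ribosomal protein genes, which encode the protein parts of the cytoplasmic ribosome, were followed across 4 cultures of human colon cancer cells on Illumina bead arrays. Members were taken by symbol from the array annotation: names that start with RPL or RPS and a digit, together with the stalk proteins RPLP1 and RPLP2, leaving out the RPS6K kinases, RPS19BP1 and pseudogenes. This gave 77 of the 18665 genes named on the array, 49 of the large subunit and 28 of the small subunit, read by 125 probes.

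The cultures were LvM3b cells over-expressing miR-483 (its 5p arm, as the series is titled), LvM3b cells over-expressing miR-551a, LvM3b control cells and Ls-Parental cells, with 1 array each. All were labelled as colon adenocarcinoma cells grown in medium with serum, and LvM3b is known as a line obtained by selecting colon cancer cells for their growth in liver. The title and source name call the last culture Ls-Parental, while its cell line entry reads LvM3b. How the microRNAs were over-expressed, and in how many clones, was not stated in the labels, and these arrays hold no reading of the mature microRNAs. Because every group is 1 array, no difference has a replicate check, no p-value is given, and a difference between cultures cannot be told apart from one between hybridisations.

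Between 13861 and 14628 of 48803 probes were detected per array at a detection p below 0.01. Of 12 colon epithelium markers, 11 were detected on each LvM3b array and 12 in Ls-Parental, with a summed log2 level of 16.74 to 16.79, and the one missing in LvM3b was KRT20. The leukocyte marker PTPRC was not detected on any array. Of 5 fibroblast markers, COL3A1 and LUM were detected on the LvM3b arrays and none in Ls-Parental. Of 4 endothelial markers, PECAM1 was detected with miR-483 and none elsewhere. Of 6 immune markers, LYZ was detected on every array, CD79A with miR-483 and CD14 in Ls-Parental. The summed immune level was 9.54 to 9.75 on the LvM3b arrays, against 12.07 in Ls-Parental; its part in the results was not tested. Of 5 hepatocyte markers, SERPINA1 was detected on every array and FGG in Ls-Parental as well; ALB was not detected.

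The ribosome joins amino acids in the order that messenger RNA gives. Its small subunit reads the codons, and its large subunit forms the peptide bonds and holds the tunnel through which the new chain leaves. The proteins are needed in matched amounts, and most of their messenger RNAs begin with a C followed by an unbroken run of pyrimidines, the terminal oligopyrimidine tract, through which mTOR signalling and the protein LARP1 control translation. MicroRNAs act through their seed, near the 5′ end, which pairs with sites in messenger RNAs. The mature sequence of miR-551a, from RefSeq on GRCh38.p14 (chr1:3560710-3560730, minus strand), is printed as the agent of 1 culture, with the seed (bases 2 to 8) in capitals.
hsa-miR-551a: gCGACCCAcucuugguuucca

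The start sites of some members that stood furthest apart in the comparisons, and of parent genes beside their paralogues, are printed. Each window runs from 15 bases before the RefSeq start to 15 bases from it, on the coding strand (GRCh38.p14). Capitals mark an unbroken run of C and T that begins with C at the start itself, where it reached 5 bases. The windows are RPL7A at chr9:133348203-133348232 (plus strand), RPL31 at chr2:101002274-101002303 (plus), RPL29 at chr3:51995881-51995910 (minus) and RPS23 at chr5:82278340-82278369 (minus).
RPL7A: ccacaattccctttcCTTTCTCTCTCCTCC
RPL31: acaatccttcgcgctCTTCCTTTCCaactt
RPL29: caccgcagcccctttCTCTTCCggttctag
RPS23: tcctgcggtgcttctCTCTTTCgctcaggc

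The parents and paralogues are RPL10 at chrX:154398362-154398391 (plus), RPL10L at chr14:46651767-46651796 (minus), RPL26 at chr17:8383179-8383208 (minus), RPL26L1 at chr5:172958714-172958743 (plus), RPL36A at chrX:101390996-101391025 (plus), RPL36AL at chr14:49620612-49620641 (minus), RPS27 at chr1:153990747-153990776 (plus) and RPS27L at chr15:63157463-63157492 (minus). Where several starts are listed, as for RPL10 and RPL26L1, the one with the longest run was taken.
RPL10: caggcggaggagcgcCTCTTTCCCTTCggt
RPL10L: caggcgtagttaagagagcgcattttgact
RPL26: aagcagcgtgtagttCTCTTCCCTTTTgcg
RPL26L1: agtcttccaggggtcggcgaacgaaacgcg
RPL36A: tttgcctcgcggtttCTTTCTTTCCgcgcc
RPL36AL: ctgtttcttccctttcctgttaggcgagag
RPS27: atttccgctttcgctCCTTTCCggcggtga
RPS27L: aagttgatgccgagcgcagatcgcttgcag
Counted this way, all 4 parents carry the run, and none of the paralogues beside them does. In RPL36AL the listed start lies inside a C and T stretch that begins before it, and 3 bases were counted from the start. Its count therefore depends on which base is listed as the start.

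A run of at least 5 bases was found at the start of 44 of the 65 members with a listed start (67.7%), against 944 of 15778 other protein-coding genes (6.0%). Runs of at least 8 bases were found in 25 members (38.5%), against 351 of the other genes (2.2%). Of the 5 paralogues with a listed start (the 4 above and RPL7L1) none had a run of 5 bases. Mitochondrial ribosomal protein genes, whose products work in the ribosome of the mitochondrion, had it in 6 of 69 (8.7%) and a run of at least 8 bases in none. In the 300 bases from 250 before to 50 after the start, read on both strands, the ETS core CCGGAAG was present in 23 members (35.4%), against 16.5% of the other genes and 43.5% of the mitochondrial set. The TATA box letters TATAAA were in 5 members (7.7%) and 12.4% of the other genes, and the YY1 core AAGATGG was in 8 members (12.3%), 7.9% of the other genes and 34.8% of the mitochondrial set.

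**Figure D1:**
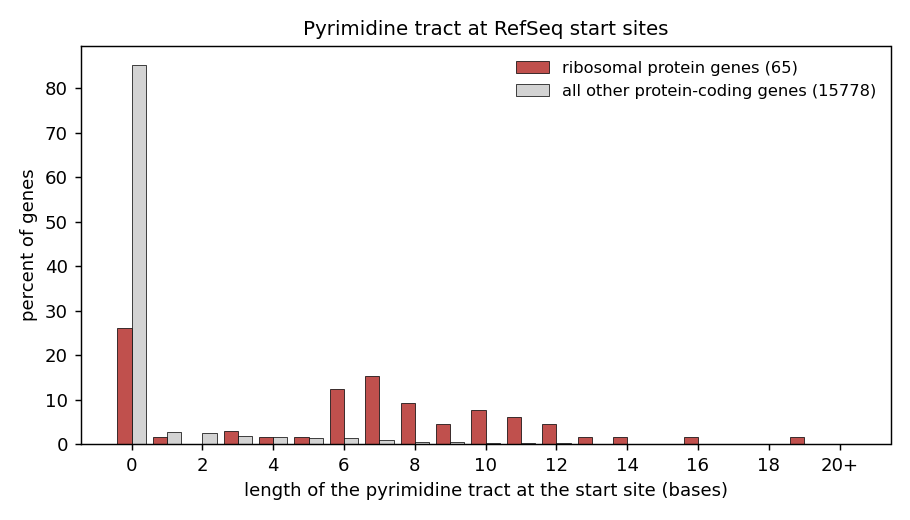
Length in bases of the pyrimidine run that begins with C at the RefSeq start, as a percent of the 65 ribosomal protein genes with a listed start (red) and of 15778 other protein-coding genes (grey). The bars at length 0 hold 85.2% of the other genes and 26.15% of the members. The other red bars spread mostly over lengths of 5 and more, where 67.7% of the members lie.

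The members were among the brightest genes of the array. Of the 77, 73 were detected on all 4 arrays and 4 on none. Those on none include RPL10, near the peptidyl transferase centre, and RPL3L, a paralogue of RPL3 known from heart and skeletal muscle. RPL10 is needed in every growing cell, and its better probe read 5.17 with miR-483, 5.47 with miR-551a, 5.02 in the LvM3b control and 5.25 in Ls-Parental on the log2 scale, below the lowest detected probes (6.13 to 6.38), so RPL10 was not well above background and its RNA was not measured here. The median log2 level of the 73, each gene read from its brightest probe, was 14.57 with miR-483, 14.62 with miR-551a, 14.69 in the LvM3b control and 14.71 in Ls-Parental. Over the arrays together it was 14.64, against 9.52 for the 8889 genes detected on all 4. The members supplied 37 of the 100 brightest genes, and their share of the total deposited signal was 5.55%, 5.53%, 5.61% and 5.87% in the same order of cultures.

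Brightness depends on the probe as well as on the RNA, so the order of members is one of probes and not of transcripts. RPL41, a very short large-subunit protein, was the brightest member, with log2 levels of 16.07, 15.99, 16.07 and 16.05 (miR-483, miR-551a, LvM3b control, Ls-Parental). RPS2, at the entrance of the messenger RNA channel, read 15.98, 16.05, 16.05 and 16.01. RPS29, a zinc-binding small-subunit protein, read 15.97, 15.97, 16.01 and 15.98. The top of the scale was 16.12, and the 4 cultures differed by less than 0.1 for each of these genes. Quantile normalization gives every array the same highest value, and the part this played was not tested. Dim members were few: 14 lay below log2 12 and 5 below 10, namely RPL10L, RPL28, RPL32, RPL36A and RPL37.

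The spread across the 4 arrays was small for most members. The range from the lowest to the highest array had a median of 0.21 on the log2 scale, against 0.35 for all genes detected on every array. It was under 0.2 for 35 of the 73 members. Such counts are not given here for all genes or for other genes as bright. The members' quartiles were set beside those of 986 other genes at log2 12 or above. They were about as wide with miR-483 over control (-0.12 to 0.06 against -0.08 to 0.10). They were also about as wide for LvM3b control over Ls-Parental (-0.19 to 0.07 against -0.12 to 0.18). The same held for miR-483 over miR-551a (-0.053 to 0.106 against -0.083 to 0.082). With miR-551a over control the members' quartiles were narrower, at -0.115 to 0.02 against -0.092 to 0.112. A range of 1.5-fold or more was found in 9 members: RPL7A, RPL23A, RPL29, RPL31, RPL32, RPL36A, RPL37, RPS7 and RPS23. All but RPL31 of those 9 were read below log2 12. The share of all genes, or of other genes as dim, with such a range is not given here.

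**Figure D2:**
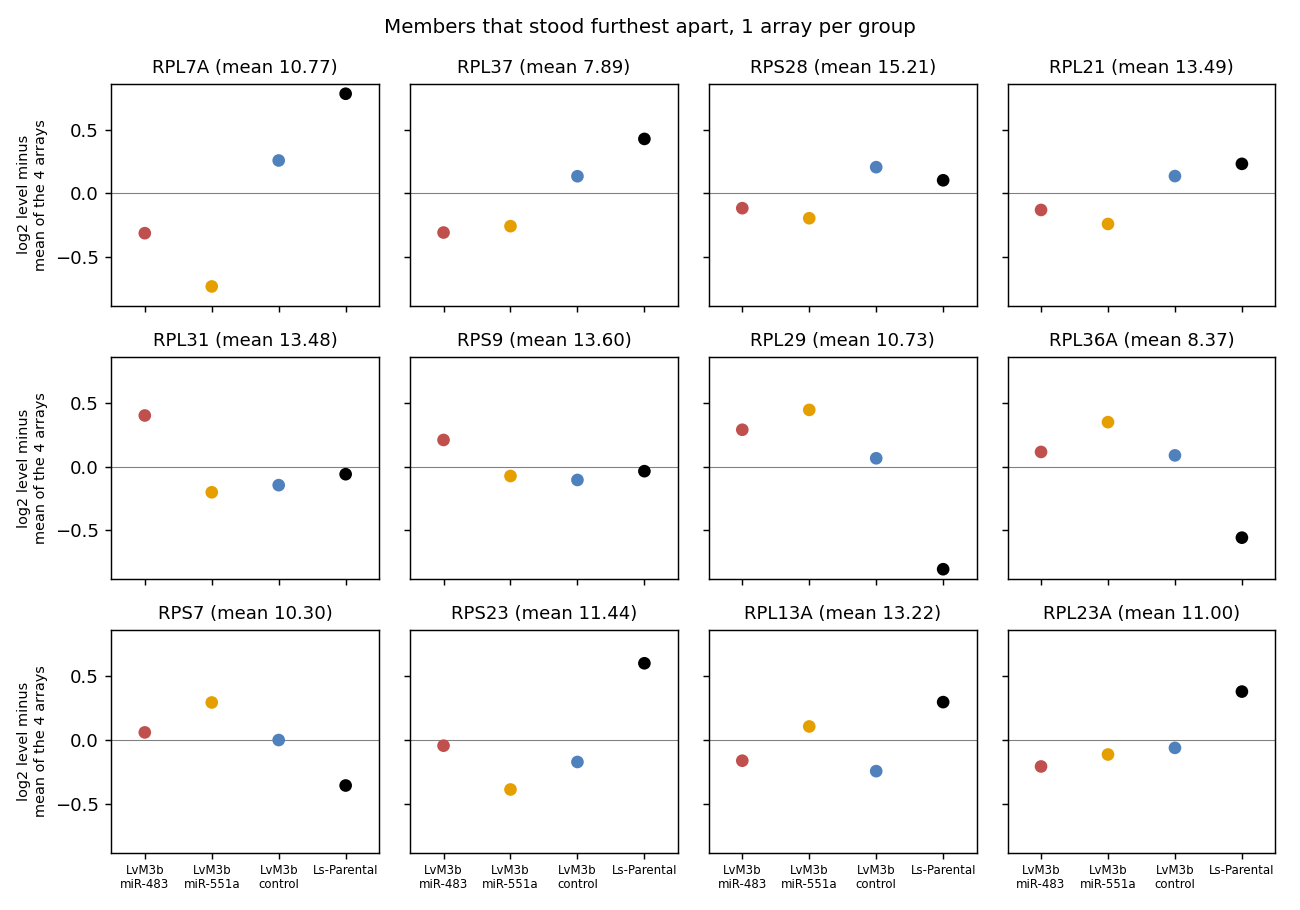
Log2 level on each array minus the mean of the 4 arrays for 12 members, chosen from those furthest higher or lower in a comparison. Other such members, RPL32 among them, are not shown. Each point is 1 array, with the mean level in the panel title. RPL7A and RPL37 read lowest on the miR-483 and miR-551a arrays, RPL31 is high with miR-483 alone, and RPL29, RPL36A and RPS7 read lowest in Ls-Parental, where RPS23 and RPL23A read highest.

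The first comparison asked how the genes read in cells over-expressing miR-483, against LvM3b control cells. Few members differed. The median log2 difference was -0.04 (SD over members 0.17), with 32 members higher and 40 lower. Over all 9673 genes tested the median was 0.01 (SD 0.26), with 4977 higher and 4684 lower. With arrays scaled to a common median of all probes instead, the median was 0.01 for the members and 0.06 for all genes. At 1.2-fold, 2 members were higher, against 10.8% of all genes, and 5 were lower, against 10.5% of all genes. Among the 986 other genes read at log2 12 or above, 3.25% were higher and 4.36% lower at that fold, shares that lie nearer to those of the members. No member passed 1.5-fold, which 1.70% of all genes passed upward and 1.58% downward.

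RPL31, which sits beside the exit of the peptide tunnel, was furthest higher with miR-483: its log2 level was 13.88 with miR-483, 13.28 with miR-551a, 13.33 in the LvM3b control and 13.42 in Ls-Parental. The miR-483 array stood above the other 3, whose readings lay within 0.15 of each other, and the difference from the control was 0.55 (1.46-fold). RPL31 has 1 probe, so this reading has no second probe beside it. RPS9, a small-subunit protein at the messenger RNA entrance, had 13.81, 13.53, 13.50 and 13.57 in the same order, 0.31 above the control, against 0.14 at its second probe. RPS26, at the messenger RNA exit, read 13.99, 13.90, 13.73 and 13.88, a difference of 0.26 that fell just short of 1.2-fold, and 0.36 at its dim second probe. RPL5 and RPL11 form a particle with 5S ribosomal RNA and, unassembled, bind the p53 regulator MDM2. RPL5 read 14.38, 14.35, 14.17 and 14.44, and RPL11 read 15.43, 15.24, 15.22 and 15.29, and both stood 0.21 to 0.22 above the control with miR-483, with Ls-Parental above the control as well. The second RPL11 probe, nearly as bright, read 15.26, 15.26, 15.25 and 15.15, a difference of 0.01 with miR-483, so the RPL11 reading rests on 1 of its 2 probes.

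RPL7A, a large-subunit protein, was furthest lower. Its single probe had deposited signals of 1576 with miR-483, 1093 with miR-551a, 2355 in the LvM3b control and 2712 in Ls-Parental, or 10.45, 10.04, 11.02 and 11.55 on the log2 scale. All 4 arrays were apart, the miR-551a array being lowest and Ls-Parental highest, and the difference from the control was -0.57 with miR-483. RPL37, a zinc-binding large-subunit protein read at a dim probe, had log2 levels of 7.59, 7.64, 8.03 and 8.32, a difference of -0.44. Its other probe, not detected on all arrays, read 6.19 with miR-483 and 5.84 in the control, which is the opposite order. RPS28, near the messenger RNA exit and among the brightest members, read 15.10, 15.02, 15.42 and 15.31, or -0.32. RPL22, an RNA-binding protein that ribosomes can do without, read 12.74, 12.91, 13.03 and 13.24 (-0.28), and RPL21, another large-subunit protein, read 13.36, 13.25, 13.63 and 13.72 (-0.27). RPS28, RPL22 and RPL21 have 1 probe each.

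The second comparison set cells over-expressing miR-551a against the same LvM3b control, so the control's own deviations enter both. The median difference was -0.05 (SD 0.19), with 24 members higher and 47 lower. Over 9619 genes the median was 0.01 (SD 0.27), with 4901 higher and 4698 lower. At 1.2-fold, 4 members were higher, against 13.3% of all genes, and 5 were lower, against 12.4% of all genes. The figures for other bright genes were 6.39% and 5.58%. RPL7A was the one member past 1.5-fold, lower by 0.99 on the log2 scale (1.99-fold); 2.18% of all genes were lower by as much as 1.5-fold and 2.03% higher.

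The other members lower at 1.2-fold with miR-551a were RPL32, RPS28, RPL37 and RPL21. RPL32, a large-subunit protein read at dim probes, had levels of 8.81, 8.53, 8.93 and 9.28 in the 4 cultures, a difference of -0.40. Its second probe read 0.14 higher with miR-551a, so the probes of RPL32 disagree. RPS28 differed by -0.40, RPL37 by -0.39 and RPL21 by -0.38, from the levels given above. All 5, RPL7A included, read below both the control and Ls-Parental on both microRNA arrays.

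The members higher with miR-551a were RPL29, RPL13A, RPS27L and RPS7. RPL29, a large-subunit protein also known as a heparin-binding protein, read 11.02, 11.18, 10.80 and 9.92, which is 0.38 above the control with miR-551a, while its second probe read 0.01 below it. RPL13A, also known as a part of the interferon-gamma-activated inhibitor of translation complex, read 13.06, 13.33, 12.98 and 13.52, so the difference of 0.35 left the miR-551a array below Ls-Parental. RPS27L, a p53-inducible paralogue of RPS27, read 14.25, 14.34, 14.03 and 13.96, a difference of 0.31. RPS7, another protein that binds MDM2, read 10.36, 10.59, 10.30 and 9.94, a difference of 0.30 at its brightest probe and 0.14 at its second. RPL36A, near the exit site for transfer RNA, read 8.49, 8.72, 8.46 and 7.82 and differed by 0.26 with miR-551a, short of 1.2-fold.

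Set directly against each other, the cells over-expressing miR-483 and those over-expressing miR-551a differed little in the members' median. The median difference was 0.01, with 39 members higher with miR-483 and 33 lower, against 4870 and 4868 of all genes. At 1.2-fold, 6 of 73 members were higher with miR-483, against 9.22% of 9753 genes, and 1 was lower, against 8.97%. Other bright genes gave 2.23% and 3.35%. As a share of 73, the 6 lie above the share of other bright genes and under that of all genes. RPL7A, RPL32 and RPS23 among the 6 were read below log2 12. With probes averaged, 3 members were higher. RPL31 was higher by 0.60 (1.52-fold), the only member past 1.5-fold, which 1.62% of all genes passed upward and 1.33% downward. RPL7A was higher by 0.42. RPS23, which lies at the decoding centre, read 11.40 with miR-483, 11.05 with miR-551a, 11.27 in the LvM3b control and 12.04 in Ls-Parental, so the difference between the microRNAs was 0.34. RPS24, known as a gene of Diamond-Blackfan anaemia, read 14.13, 13.82, 13.94 and 14.10, a difference of 0.32, while its dimmer probe gave -0.11.

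The last comparison set LvM3b control cells against Ls-Parental cells, the parental culture by its title. The median difference was -0.03 (SD 0.24), against -0.01 over 9817 genes, whose spread was larger (SD 0.54). Of the members, 32 were higher and 40 lower, against 4725 and 5082 of all genes. At 1.2-fold, 3 members were higher, against 20.6% of all genes, and 10 were lower, against 23.0% of all genes (18.0% and 10.9% of other bright genes). That split turned to 11 higher and 5 lower when arrays were scaled to a common median of all probes, without quantile normalization. It turned to 11 and 4 in the authors' processed values. Those scalings moved the median of all genes up, by 0.113 and 0.115, and the members' median to 0.04 and 0.05. Scaled on the probes detected on all 4 arrays instead, also without quantile normalization, 3 members were higher and 8 lower. The members' median was then -0.05, and that of all genes moved by 0.018. Shares of all genes at 1.2-fold under these scalings are not given here. Relative to the median of all genes the members stood at -0.02 under quantile normalization, -0.06 under median scaling and -0.05 in the authors' values. The microRNA cultures, set against Ls-Parental, had 6 members higher and 16 lower with miR-483 (22.9% and 23.4% of all genes) and 5 higher and 16 lower with miR-551a (24.3% and 24.8%). Between LvM3b control and Ls-Parental at 1.5-fold, 2 members were higher, against 7.24% of all genes, and 1 was lower, against 7.57%.

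RPL29 was furthest higher in LvM3b, at 0.87 on the log2 scale (1.83-fold) over Ls-Parental. Its deposited signals were 2310 with miR-483, 2322 with miR-551a, 2016 in the LvM3b control and 947 in Ls-Parental, so all 3 LvM3b arrays stood well above Ls-Parental. The second RPL29 probe gave 10.98, 10.96, 10.97 and 9.80, a difference of 1.17, so both probes separated the lines the same way. RPL36A was 0.65 higher (1.57-fold) and RPS7 0.36 higher, the second RPS7 probe reading 0.56. The other RPL36A probe was not detected on any array. RPL9 and RPL35A, both large-subunit proteins, followed at 0.24 each, from levels of 15.27, 15.29, 15.33 and 15.10 for RPL9 and 14.89, 14.72, 14.85 and 14.60 for RPL35A; another bright RPL9 probe gave -0.23. RPL38, known for its part in translating Hox messenger RNAs in mice, read 15.35, 15.54, 15.49 and 15.27, a difference of 0.22, against 0.07 at its second probe.

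RPS23 was furthest lower, at -0.78 (1.71-fold), and all 3 LvM3b arrays read below Ls-Parental by more than they differed among themselves. RPL13A was lower by 0.54 and RPL7A by 0.52, but for both genes the LvM3b arrays were themselves spread widely. RPL10L, an autosomal copy of RPL10 known from testis, read 7.29, 7.34, 7.43 and 7.87, a difference of -0.44. RPL23A, at the mouth of the peptide tunnel where the signal recognition particle docks, read 10.79, 10.89, 10.94 and 11.38, also -0.44. For RPL10L and RPL23A the 3 LvM3b readings lay within 0.15 of each other and did not overlap with Ls-Parental. RPS23, RPL13A, RPL7A, RPL10L and RPL23A have 1 probe each, so no second probe stands beside these readings.

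Using the 3 LvM3b arrays together, all 3 read above Ls-Parental for 18 members, against 35.5% of 10095 genes, and all 3 below for 32 members, against 35.9%. The gap to Ls-Parental was larger than the range of the 3 LvM3b arrays for 5 members that were higher in LvM3b, against 18.7% of all genes: RPL9, RPL10A, RPL29, RPL36A and RPS7. It was larger for 13 that were lower, against 16.6%: RPL7, RPL7L1, RPL10L, RPL14, RPL23, RPL23A, RPL26L1, RPL28, RPS3A, RPS15, RPS18, RPS19 and RPS23. In the authors' processed values these counts were 17 and 6. The median of all genes for LvM3b control over Ls-Parental moved up by 0.115 there. Shares of all genes in those values are not given here. All 3 arrays were at least 1.2-fold higher for RPL29, RPL36A and RPS7 (14.1% of all genes) and at least 1.2-fold lower for 8 members (13.9%). All 3 were at least 1.5-fold higher for RPL29 and RPL36A (5.25% of all genes) and 1.5-fold lower for RPS23 (4.56%). The 3 LvM3b cultures carry different treatments and are not replicates of 1 group.

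**Figure D3:**
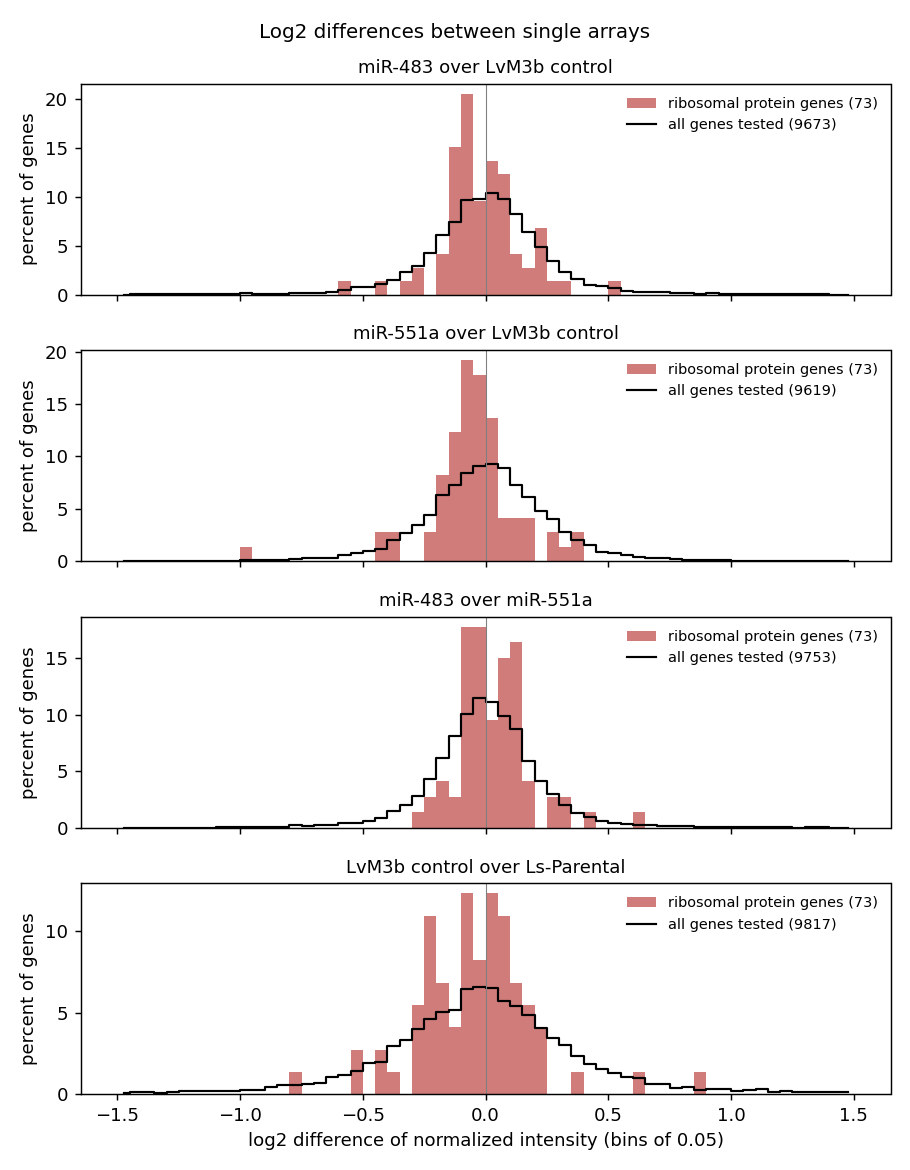
Log2 differences of the 73 detected ribosomal protein genes (red bars) and of all genes tested (black line), as a percent of genes in bins of 0.05, for the 4 comparisons. The red bars gather near 0 in each panel, with medians from -0.05 to 0.01, and few members pass 0.26 (1.2-fold) in either direction.

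By subunit, the median differences were -0.06 for the large and 0.01 for the small subunit with miR-483 over control, and -0.06 and -0.01 with miR-551a over control. Between LvM3b control and Ls-Parental they were -0.09 and 0.00. The stalk proteins RPLP1 and RPLP2, which recruit elongation factors, differed by 0.09 and 0.17 with miR-483, by 0.02 and 0.06 with miR-551a, and by 0.05 and -0.19 between LvM3b control and Ls-Parental. RPLP1 shows how far probes can part: its dimmest probe read 13.97 with miR-483, 13.98 with miR-551a, 14.47 in the control and 14.40 in Ls-Parental, a difference of -0.50 with either microRNA. The 10 measured proteins around the tunnel exit had medians of -0.07 with miR-483 over control and -0.06 with miR-551a over control, and RPL31 was the only one of them past 1.2-fold upward with miR-483. The 16 measured genes known from Diamond-Blackfan anaemia, an inherited failure of red cell production, had medians of 0.05, -0.04 and 0.02 in the 2 microRNA comparisons and against Ls-Parental.

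Each paralogue was set beside its parent by their differences, not their levels. RPL7, a large-subunit protein, read 12.42, 12.33, 12.50 and 12.73 in the 4 cultures, differing from the control by -0.08 with miR-483 and -0.18 with miR-551a. RPL7L1, which takes part in ribosome assembly, read 12.34, 12.29, 12.33 and 12.54 at its brightest probe, differing by 0.02 and -0.03. The second RPL7L1 probe differed by 0.08 and 0.38, so its probes disagree with miR-551a. RPL26 read 13.59, 13.59, 13.66 and 13.59, and RPL26L1 read 11.36, 11.37, 11.42 and 11.69, so LvM3b control over Ls-Parental was 0.07 for the parent and -0.28 for the paralogue. RPL36A stood 0.65 above Ls-Parental and RPL36AL 0.07, from levels of 14.36, 14.45, 14.31 and 14.24 for RPL36AL. RPL39, at the tunnel wall, read 15.12, 15.10, 15.18 and 15.05, and RPL39L, known from testis and tumours, read 10.57, 10.41, 10.46 and 10.57. Against Ls-Parental they differed by 0.12 and -0.11, while the second RPL39L probe gave 0.04, the sign of RPL39. RPS27 read 15.43, 15.32, 15.41 and 15.37, differing by 0.02 and -0.08 with miR-483 and miR-551a, while RPS27L differed by 0.22 and 0.31. Parents and paralogues are alike in sequence, and how far each probe binds the other's transcript was not tested.

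A group of 36 members had several probes detected on all 4 arrays. In the LvM3b control over Ls-Parental comparison the probes of 17 of them were not all of 1 sign, and in 14 they were more than 0.3 apart. The brightest and the dimmest probe differed in sign in 15, against 31.6% of 2029 other genes with several probes. The dimmest probe was at least 1.2-fold higher in LvM3b for 14 of the 36, against 23.4% of the other genes, while the brightest probe was so for 2, against 19.8%. RPS24 read 11.23, 11.34, 11.09 and 10.37 at its dimmer probe, a difference of 0.72, where the bright probe gave -0.16. RPS15, at the decoding centre, gave 0.62 at the dimmest probe and -0.24 at the brightest. RPL6 gave 0.62 and 0.10, and RPL7L1 gave 0.54 and -0.22. RPL9 gave 0.64 at the dimmest and 0.24 at the brightest, but -0.23 at its middle probe. The dimmest probe was at least 1.2-fold lower in LvM3b for 4 of the 36: RPS29 (-0.41), RPL14 (-0.34), RPL26L1 (-0.31) and RPS3A (-0.27). The share of other genes lower by as much is not given here. The dimmest RPS3A probe was itself bright, at a mean log2 level of 14.79. Further members read lower at the dimmest probe by less than 1.2-fold, such as RPL32 (-0.19) and RPL18 (-0.17).

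Between LvM3b control and Ls-Parental the wide differences lay at dim probes. Of the 33 member probes below log2 12, 8 differed 1.5-fold or more, with a range from -0.78 to 1.17, against 11.3% of other probes at that level. Of 25 between 12 and 14, 1 did (6.97% of other probes), and none did of 58 above 14 (5.66%), which lay between -0.27 and 0.24. The comparisons among the LvM3b arrays held too few such probes to show this: none with miR-483 over control, 1 below log2 12 with miR-551a over control, and 1 between 12 and 14 with miR-483 over miR-551a. With miR-551a over control, the dimmest probe was at least 1.2-fold higher for 6 of the 36 members (14.4% of other genes) and the brightest for 2 (9.07%). Which transcripts each probe binds, including the many processed pseudogenes of this family, was not tested.

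**Figure D4:**
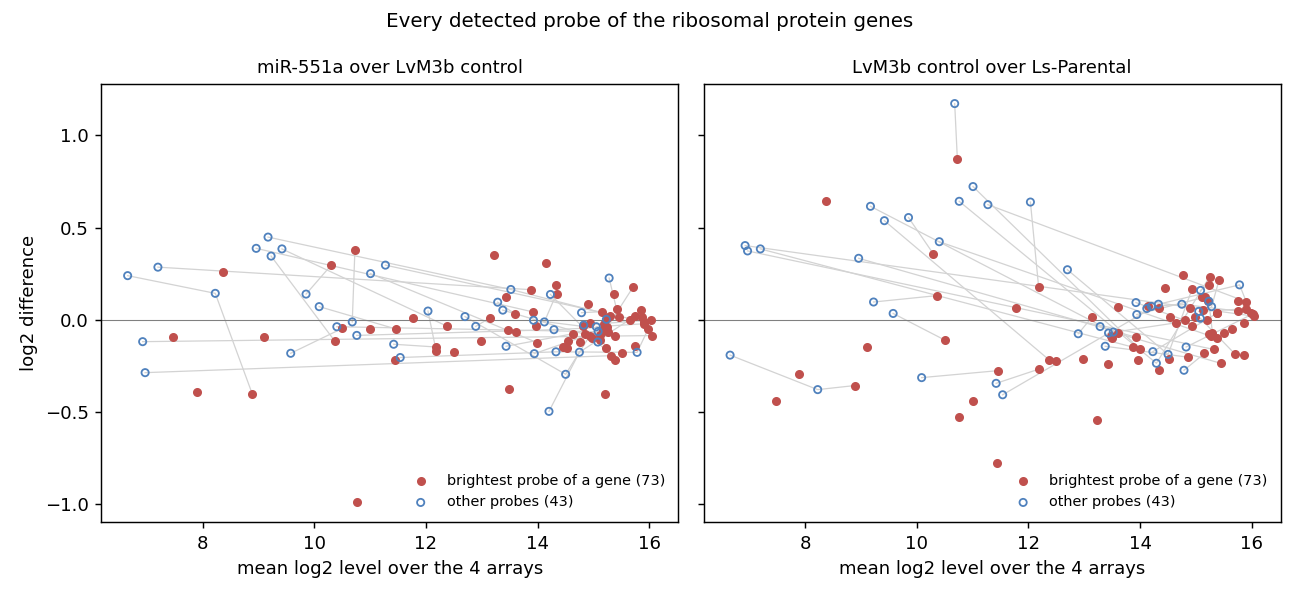
Log2 difference against mean log2 level for every member probe detected on all 4 arrays, for miR-551a over LvM3b control (left) and LvM3b control over Ls-Parental (right). Filled red points are the brightest probe of each of 73 genes, open blue points the 43 other probes, and grey lines join probes of 1 gene; in the right panel the dim probes fan out from -0.78 to 1.17 while those above level 14 stay between -0.27 and 0.24.

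The medians of members with and without the pyrimidine run at their start lay within 0.1 of each other. The 42 detected members with a run of at least 5 bases had medians of -0.02 with miR-483 and -0.08 with miR-551a over control, and -0.01 for LvM3b control over Ls-Parental. The 20 without it had -0.02, -0.02 and -0.03. The run was counted only from a C at the listed start. The 20 therefore include RPL36AL, whose listed start lies inside a C and T stretch, and are not known to lack the tract in their messenger RNAs. RPL7A, RPL31, RPL29 and RPS23, printed above, all carry the run and stood furthest apart in different directions. RPL32 and RPS7, which also spanned 1.5-fold or more across the arrays, are among those without it.

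Other genes of the translation machinery were described by the same counts. With miR-551a over control, 14 of 58 detected ribosome biogenesis genes were at least 1.2-fold higher (13.3% of all genes) and 1 lower (12.4% of all genes), with a median of 0.10. With miR-483 over control 3 were higher and 5 lower (10.8% and 10.5% of all genes), with a median of 0.02. With miR-483 over miR-551a none was higher and 10 were lower (9.22% and 8.97% of all genes). MRTO4, a large-subunit assembly factor, was 0.62 higher with miR-551a over control, and POLR1B, a subunit of RNA polymerase I, was 0.58 lower with miR-483 over control (log2 difference -0.58). The 77 detected mitochondrial ribosomal protein genes had medians of 0.07 with miR-483 and 0.06 with miR-551a, with 8 higher and 3 lower with miR-483, and 8 higher and 1 lower with miR-551a; as a share of 77 these lie under the shares of all genes just given. MRPL28, of the mitochondrial large subunit, was 0.72 and 0.56 higher. A list of 35 genes of translation initiation, its repressors EIF4EBP1 and EIF4EBP2 included, had medians of 0.00 and 0.07. A list of 10 genes of elongation, the kinase EEF2K included, had 0.01 and 0.14. The 16 other genes known for the pyrimidine run had medians of 0.01 and 0.03, and -0.02 for LvM3b control over Ls-Parental. FAU, whose product is cleaved to a ubiquitin-like protein and ribosomal protein eS30 and which the symbol rule leaves out, differed by 0.21, 0.28 and -0.39 in those 3 comparisons.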

How the data were processed

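RNA of 4 cultures was measured with 1 array each; groups follow the titles. Per the file headers, the deposited table holds a probe intensity on a linear scale, not normalized between arrays, and a Detection score, of which 1 minus the score was used as detection p. The authors' processed intensity values equal that table times 1 factor per array, found from the values (linear, not centred; median 115.4 in each column). The software is not given in the sources consulted. Background was corrected by normexp from the detection p (offset 16) and arrays were quantile normalized to log2 values, with neqc of limma 3.58.1 (R 4.3.3). Symbols came from the platform annotation, updated by gene number through RefSeq GRCh38.p14: 27578 probes had 1 gene, 13 several and 21212 none, and 27541 matched. Of several probes of a gene the brightest by mean level was used, and a gene was tested where detected (p under 0.01) on at least 1 array of the comparison. Counts at 1.2-fold and 1.5-fold stand beside those of all genes; there is no test. The steps were tested on simulated data with known differences in genes well above background. The simulated arrays had no scale differences between them and no saturation, so the effect of those was not tested. Start sites and the microRNA come from RefSeq tables.

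Members, gene lists and alternatives were chosen with earlier results of these data known. Given with all 4 array values were the 5 members furthest higher and lower in each comparison, members past 1.5-fold, the 3 brightest and dimmest, and paralogue pairs; members whose probes differ in sign were too many and are given by counts and examples. Of the members, 2 are Y-linked and their levels are not reported. The number of arrays limits the precision. Some genes of the family are not reported here.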

Additional observations from a re-analysis of the deposited data

Results flagged for a closer look

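Probes named for pseudogenes of this family lie outside the members, and 6 of these pseudogenes had a probe detected on all 4 arrays. Their mean log2 levels over the arrays were 12.56 for RPL13AP6, 10.25 for RPL13P5, 8.48 for RPL23AP32, 12.96 for RPL23AP64, 8.90 for RPL23AP7 and 14.90 for RPS26P11. RPL23AP32 read 8.19 with miR-483 and 8.14 with miR-551a, against 8.87 in the LvM3b control, differences of -0.68 and -0.73. RPS26P11 read 14.96 in the LvM3b control and 14.68 in Ls-Parental, a difference of 0.28. No outlier within a group could be sought, since each group is 1 array.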

How the results depend on the processing

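No paired analysis was possible because each group is 1 array and no test was made. Under the alternatives run, the members' median lay between -0.05 and 0.01 with miR-483 over control, changing sign with median scaling and the dimmest probe, and between -0.09 and -0.03 with miR-551a over control. Median scaling over all probes without the quantile step gave, at 1.2-fold, 4 higher and 3 lower with miR-483 over control, and 2 higher with miR-551a over control. It gave a median of 0.10 with 0 lower for miR-483 over miR-551a. For LvM3b control over Ls-Parental it gave a median of 0.04 with 11 higher and 5 lower. The median of all genes moved as well, by 0.048, -0.039, 0.088 and 0.113 in the same order. For miR-483 over miR-551a, the members' median less that of all genes was 0.007, against 0.008 in the main values. Scaling on probes detected on all 4 arrays gave 3 higher and 8 lower for LvM3b control over Ls-Parental. The authors' processed values gave 0 lower for miR-483 over miR-551a, and a median of 0.05 with 11 higher and 4 lower against Ls-Parental. Against the range of the 3 LvM3b arrays, Ls-Parental lay below for 9 members and above for 6 with median scaling, 17 and 6 in the authors' values, and below for 9 with probes averaged. Averaging probes gave 2 higher and 3 lower with miR-551a over control, 3 higher and 2 lower for miR-483 over miR-551a, and 6 higher against Ls-Parental. No filter on dim genes gave 2 lower for miR-483 over miR-551a, and leaving out members whose probe is among the 100 brightest probes, which left 47, gave a median of -0.09 against Ls-Parental. Taking the dimmest detected probe, an alternative chosen after seeing the data like the scaling on probes detected on all arrays, gave 4 higher with miR-483 and 8 with miR-551a over control, 3 higher and 3 lower between the microRNAs, and a median of 0.02 with 15 higher against Ls-Parental. RPL7A kept its direction in every alternative run, from -0.58 to -0.53 with miR-483 and from -1.04 to -0.93 with miR-551a. RPL7A has 1 probe, detected on all 4 arrays, so the alternatives on probe choice and filtering could not change its value. Only the changes of scaling and background correction could move it. RPL29 kept its direction against Ls-Parental (0.82 to 1.17). Shares of all genes under the alternatives are not given here, and the cause of these shifts was not tested. Of the members, 43 lay at or above log2 14, near the top of the scale of 16.12.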
